A study of Mus musculus with 4 samples.

Results

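The genes examined here encode the insulin, insulin-like growth factor (IGF) and adiponectin signaling machinery of bone marrow. There are 9 of them among the 55401 genes of the transcript tables, chosen by name: Insr, Igf1, Igf1r, Irs1, Irs2, Socs3, Adipor1, Adipor2 and Igfbp4. They were followed in 4 RNA-seq libraries of tibial bone marrow from wild-type male C57/B6 mice. All the mice received a high-fat diet (HFD) from the age of 8 weeks. The diet was given first to induce obesity, and the mice were divided into groups after that. The group without exercise (Ob, 2 libraries) stayed on the diet alone. The exercised group (Ob + Exe, 2 libraries) stayed on the diet and also ran on a treadmill at moderate intensity for 12 weeks. Lean mice were not analysed here, so the comparison is of exercise within obesity. The labels name bone marrow as tissue but also fibroblast as cell type and mesenchymal stem cells as cell line. The neutrophil gene S100a8 had 11901 to 35869 scaled FPKM in the 4 libraries, and the 10 stroma and fibroblast markers reached from 0.215 to 0.690 for Col3a1, the lowest value, through 4.97 to 7.32 for Col1a2 to 88.4 to 142 for Cxcl12, a chemokine of marrow stroma. Markers of blood cells and of stroma were thus both present, and the libraries are described by their tissue, bone marrow. The labels do not say whether the 2 libraries of a group are separate animals, and the p values measure only the spread between these libraries.

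Insulin and IGF-1 bind related receptor tyrosine kinases, the insulin receptor (Insr) and the IGF-1 receptor (Igf1r). The receptors phosphorylate the docking proteins IRS-1 and IRS-2, which recruit PI3K and activate Akt. IGF-binding proteins such as Igfbp4 hold IGF-1 outside the cell, and suppressor of cytokine signaling 3 (Socs3), a gene induced by STAT3, can bind the receptors and IRS proteins and dampen the signal. Adiponectin, a hormone of fat cells including those of the marrow, acts through the membrane receptors Adipor1 and Adipor2, toward AMPK and PPARα. In bone, IGF-1 supports osteoblasts, and marrow myeloid cells are also a source of it.

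Each library rested on 44310505 to 53038186 read equivalents, the number of 150-base reads that would give the coverage of its transcripts. FPKM of the transcripts were summed per gene and scaled between libraries. Of the 9 genes, 8 reached a mean of 0.1 FPKM and were tested. Irs1 did not reach it. A gene was called when its unadjusted limma p was under 0.05 and its log2 fold change lay outside ±1. These limits were passed by 3.74% of the 18596 genes tested (186 genes higher and 510 lower in Ob + Exe), and this limma fit gave no gene an adjusted p under 0.05, while 940 had an unadjusted p under 0.05 and limma voom called 450. A limma fit blocked on replicate number put 18 genes at an adjusted p under 0.05. With 2 libraries against 2, the smallest two-sided p that an exact permutation test allows is 0.333.

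Several results below depend on which transcript of a gene received the reads, so the coding exons that tell the transcripts of Insr and Igf1 apart are shown first (GENCODE vM21 transcript sequences, GRCm38). The insulin receptor has an A form without, and a B form with, a small alternative exon of 36 bases at chr8:3181702-3181737 on the minus strand. In the following lines capitals mark the alternative exon, and lower case the 20 bases of the neighbouring exons on each side.
Insr with the exon: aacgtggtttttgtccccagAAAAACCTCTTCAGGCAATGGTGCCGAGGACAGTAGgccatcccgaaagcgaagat
Insr without the exon: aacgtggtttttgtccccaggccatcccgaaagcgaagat
In Igf1, an exon of 52 bases at chr10:87915298-87915349 on the plus strand changes the carboxyl-terminal E peptide of the precursor. The form with it is the Eb form of rodents, also called mechano growth factor, and the form without it is Ea.
Igf1 with the exon: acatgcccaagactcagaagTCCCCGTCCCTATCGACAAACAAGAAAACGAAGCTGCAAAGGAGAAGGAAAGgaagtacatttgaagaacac
Igf1 without the exon: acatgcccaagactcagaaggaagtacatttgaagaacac
Igf1 also starts from alternative leader exons that encode different beginnings of the signal peptide. Capitals here mark the coding bases of the leader exon, at chr10:87859350-87859412 for the first and chr10:87861371-87861385 for the second, and lower case the first 20 bases of the exon that follows.
Igf1 first leader exon: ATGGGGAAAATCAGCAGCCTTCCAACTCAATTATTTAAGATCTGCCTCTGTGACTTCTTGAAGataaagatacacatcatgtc
Igf1 second leader exon: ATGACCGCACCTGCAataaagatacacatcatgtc

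None of the 8 genes tested was called in either direction. Socs3 was the only member with an unadjusted limma p under 0.05, which 5.05% of all genes tested had, and was higher in both Ob + Exe libraries, with a log2 fold change that stayed within 1. Igf1r and Adipor1 also had both Ob + Exe libraries above both Ob libraries, and Igfbp4 had both below, so the groups did not overlap for 4 of the 8. Among all genes tested, 32.6% had groups that did not overlap (14.3% higher and 18.3% lower in Ob + Exe). The log2 fold change was above 0 for 6 of the 8 genes, with a median of 0.19, against a median of -0.019 and 48.3% above 0 over all genes tested. Marrow is a mixture, and in bulk RNA fewer cells of a type and less RNA per cell cannot be told apart.

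**Figure D1:**
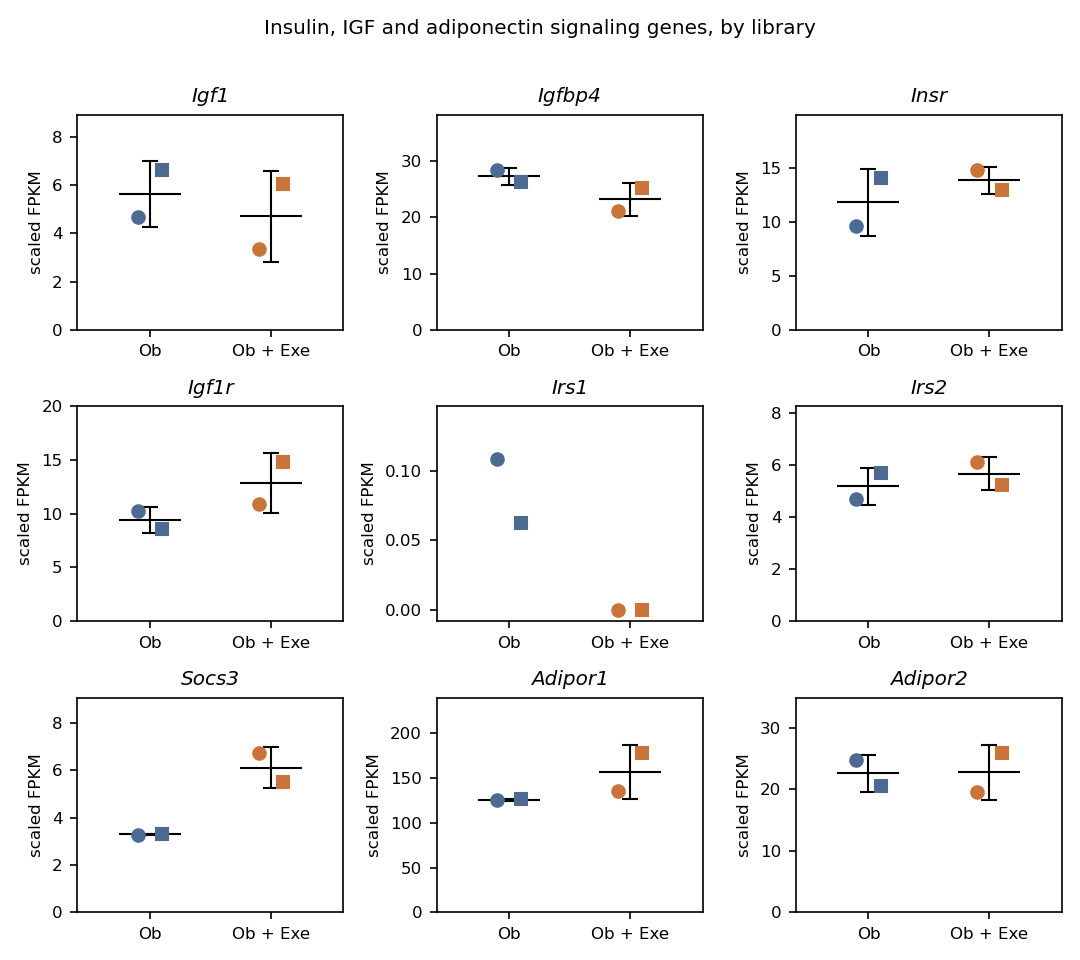
Scaled FPKM (vertical axes, each including 0 and with its own range) of the 9 genes in the Ob and Ob + Exe libraries, with circles for replicate 1 and squares for replicate 2. Black lines are the mean and SD of the 2 libraries, not drawn for Irs1, which is listed at 0 in both Ob + Exe libraries; the Socs3 libraries lie at 3.28 and 3.30 in Ob and at 6.71 and 5.50 in Ob + Exe.

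As levels per length, the members covered a wide range. Adipor1 was the most abundant at 125 to 178 scaled FPKM over the 4 libraries, above 98.1% of the genes tested by its mean. Igfbp4 (21.1 to 28.4) and Adipor2 (19.6 to 25.8) followed, and their ranges overlapped. Insr (9.59 to 14.8) and Igf1r (8.58 to 14.8) also overlapped, as did Irs2 (4.69 to 6.13), Igf1 (3.37 to 6.62) and Socs3 (3.28 to 6.71). Irs1 was last, at 0.108 or less. Adipor1 and Adipor2 thus had higher levels in scaled FPKM than Insr and Igf1r in each library.

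Igf1, the ligand, lies on chromosome 10 (ENSMUSG00000020053.18, 87858265 to 87937042, plus strand). It had 4.69 and 6.62 scaled FPKM in Ob, 5.65 ± 1.37 (SD, n = 2), and 3.37 and 6.05 in Ob + Exe, 4.71 ± 1.89 (SD, n = 2). The groups overlapped, and the log2 fold change of -0.30 was smaller than its standard error of 0.39 (limma, adjusted p = 0.974). Its direction was not stable. With read equivalents in limma voom it was 0.15, with the longest transcript alone it was 0.25, and without Ob + Exe replicate 1 it was 0.12.

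The forms of Igf1 were not alike. Transcripts with the 52-base exon had 2.67 and 3.60 scaled FPKM in Ob against 1.06 and 2.02 in Ob + Exe, and those without it had 1.93 and 3.0 in Ob against 2.31 and 3.75 in Ob + Exe. The groups did not overlap for the first and overlapped for the second. Among the transcripts with the exon, the difference lay in the 651-base one, with 1.80 and 2.93 in Ob against 0 and 1.29 in Ob + Exe. The 1673-base one had 0.868 and 0.678 in Ob against 1.06 and 0.733 in Ob + Exe, which overlapped. In read equivalents the transcripts with the exon held 179 and 203 in Ob against 105 and 113 in Ob + Exe. That was 16.4% and 12.6% of the reads of Igf1 in Ob, and 9.85% and 7.21% in Ob + Exe. As a share of FPKM it was 57.0% and 54.4% against 31.5% and 33.4%. FPKM divides by length, so a read on the annotated 651-base transcript with the exon adds more to it than a read on the 7052-base transcript without it. Transcripts from the second leader exon had 96 and 133 read equivalents in Ob, 0 in Ob + Exe replicate 1 and 81 in Ob + Exe replicate 2. The 651-base transcript with the 52-base exon is one of them. It held 80 and 127 of these reads in Ob against 0 and 46 in Ob + Exe, so the 2 comparisons share reads. StringTie divides reads among overlapping transcripts, so these shares are estimates, and they were not tested.

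Igfbp4, the most abundant IGF-binding protein transcript in these libraries, lies on chromosome 11 (ENSMUSG00000017493.12, 99041244 to 99054392, plus strand). It had 28.4 and 26.3 scaled FPKM in Ob, 27.3 ± 1.47 (SD, n = 2), and 21.1 and 25.3 in Ob + Exe, 23.2 ± 2.94 (SD, n = 2). The Ob + Exe values both lay under the Ob values, and Ob + Exe replicate 2 was close to Ob replicate 2. The log2 fold change was -0.24 with a standard error of 0.21 (limma, adjusted p = 0.959). It was -0.11 without Ob + Exe replicate 1 and -0.37 without Ob + Exe replicate 2. The ratio of Igf1 to Igfbp4 within a library, which does not depend on the scaling, was 0.165 and 0.252 in Ob against 0.160 and 0.239 in Ob + Exe. The ratio overlapped between the groups (exact permutation test, two-sided p = 0.667). Its difference on the log2 scale was -0.06 in FPKM and 0.47 in read equivalents, and it lay between -0.37 and 0.24 when 1 library was left out.

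Insr lies on chromosome 8 (ENSMUSG00000005534.10, 3122061 to 3279617, minus strand). Its summed scaled FPKM was 9.59 and 14.0 in Ob, 11.8 ± 3.14 (SD, n = 2), and 14.8 and 13.0 in Ob + Exe, 13.9 ± 1.26 (SD, n = 2). The groups overlapped, with a log2 fold change of 0.25 (standard error 0.28, limma, adjusted p = 0.965). The spread of the sum lay in a short transcript. The full-length transcript, with 21 exons and 9355 bases, was even across the libraries at 7.50 and 6.92 in Ob against 7.81 and 7.73 in Ob + Exe. An annotated transcript of 551 bases, which lies at the 3′ end and has an exon beyond the end of the full-length transcript, had 1.99 and 6.83 scaled FPKM in Ob against 6.96 and 4.94 in Ob + Exe. It rested on 75, 252, 226 and 149 read equivalents, between 1.54% and 5.45% of the reads of Insr, while the full-length transcript held 93.8% to 98.1%. With the longest transcript of each gene in place of the sum, the log2 fold change of Insr was 0.06.

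The full-length transcript lacks the 36-base exon of the B form. The exon is present in a fragment of 672 bases, which had 1 read equivalent in Ob replicate 1 and 0 in the other libraries. The reads over Insr were therefore assigned almost wholly to a transcript of the A form. A complete transcript of the B form was not among those compared, so reads over the shared exons cannot show how much of it there was.

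**Figure D2:**
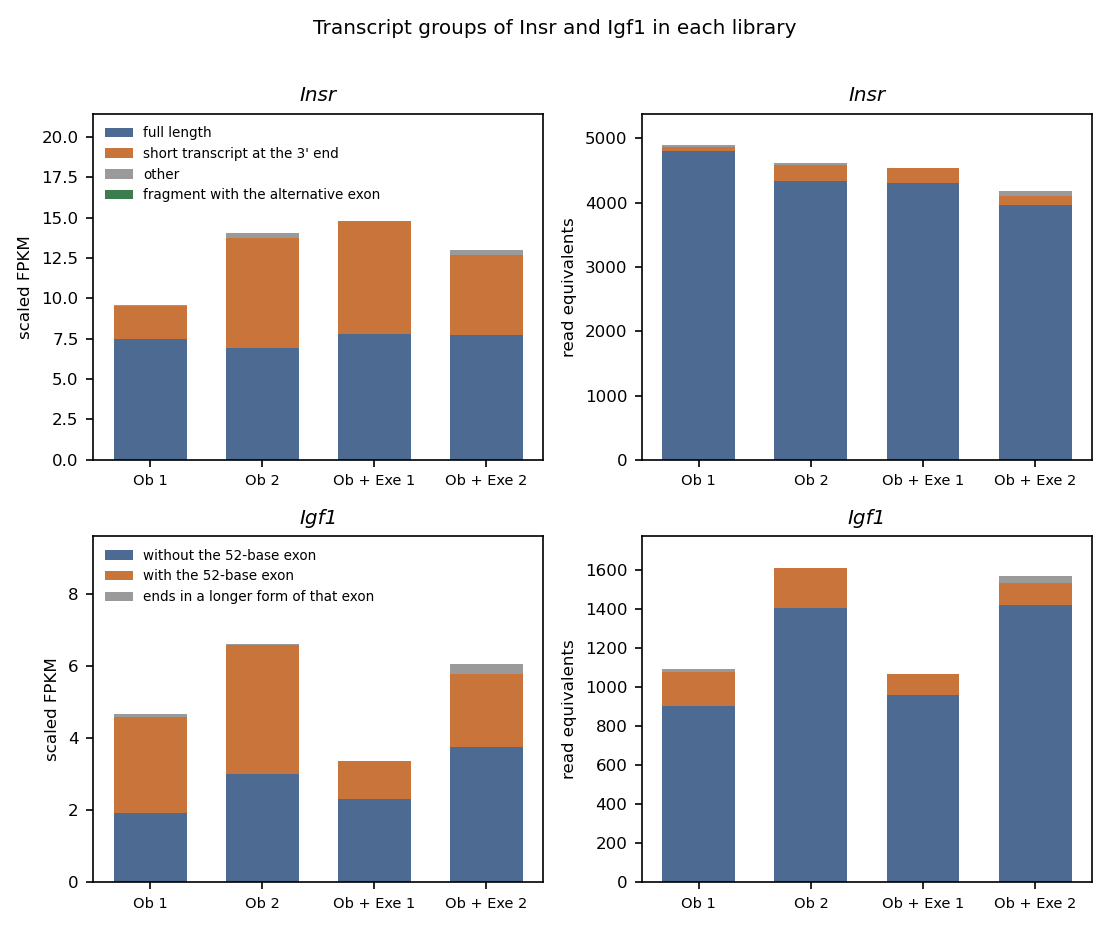
Transcript groups of Insr (top) and Igf1 (bottom) in each library as stacked bars, in scaled FPKM (left) and in read equivalents (right). The full-length Insr transcript is even across libraries (6.92 to 7.81 scaled FPKM), while the short 3′ transcript varies from 1.99 to 6.96; the same short transcripts make up little of the bars in read equivalents.

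Igf1r lies on chromosome 7 (ENSMUSG00000005533.10, 67952827 to 68233668, plus strand). It had 10.3 and 8.58 scaled FPKM in Ob, 9.43 ± 1.21 (SD, n = 2), and 10.9 and 14.8 in Ob + Exe, 12.9 ± 2.77 (SD, n = 2). Both Ob + Exe libraries lay above both Ob libraries, but Ob + Exe replicate 1 exceeded Ob replicate 1 by little. The log2 fold change was 0.43 (standard error 0.27, 95% interval -0.23 to 1.1, limma, adjusted p = 0.959). It was 0.65 without Ob + Exe replicate 1 and 0.21 without Ob + Exe replicate 2. Its full-length transcript of 11409 bases carried most of the level, with 9.07 and 8.04 in Ob against 9.42 and 13.2 in Ob + Exe. The ratio of Igf1r to Insr was 1.07 and 0.611 in Ob against 0.738 and 1.14 in Ob + Exe, with overlapping groups (exact permutation test, two-sided p = 0.667).

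The docking proteins were unequal. Irs2, on chromosome 8 (ENSMUSG00000038894.7, 10984681 to 11008458, minus strand), had 4.69 and 5.69 scaled FPKM in Ob, 5.19 ± 0.703 (SD, n = 2), and 6.13 and 5.22 in Ob + Exe, 5.68 ± 0.642 (SD, n = 2). The groups overlapped, and the log2 fold change of 0.13 was below its standard error of 0.28 (limma, adjusted p = 0.977). Irs1, on chromosome 1 (ENSMUSG00000055980.2, 82233101 to 82291416, minus strand), had 0.108 and 0.0628 scaled FPKM in Ob and is listed at 0 in both Ob + Exe libraries. In the Ob libraries Irs2 was thus 43.3 and 90.6 times the level of Irs1.

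The Ob values of Irs1 rested on 68 and 38 read equivalents. The gene Gm9747 on the opposite strand shares 2822 exon bases with Irs1, and where the counting does not use strand, reads of overlapping genes cannot be told apart. The kit named in the study's methods, NEBNext Ultra RNA, is not the directional version. Gm9747 had 17 and 77 read equivalents in Ob against 37 and 98 in Ob + Exe. The sum of both genes was 85 and 116 in Ob against 37 and 98 in Ob + Exe, and these groups overlapped. Zeros were also more frequent in Ob + Exe in general. Of 608 genes with 0.05 to 0.15 scaled FPKM in both Ob libraries, 24.3% are listed at 0 in both Ob + Exe libraries. Of 195 genes in that range in both Ob + Exe libraries, 4.62% are listed at 0 in both Ob libraries.

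Socs3 lies on chromosome 11 (ENSMUSG00000053113.3, 117966079 to 117970047, minus strand). It had 3.28 and 3.30 scaled FPKM in Ob, 3.29 ± 0.0131 (SD, n = 2), and 6.71 and 5.50 in Ob + Exe, 6.11 ± 0.852 (SD, n = 2). The Ob libraries were nearly equal in this summed level, and both Ob + Exe libraries were well above them. The Ob + Exe mean was 1.86 times the Ob mean. The values came from 495 and 563 read equivalents in Ob against 884 and 770 in Ob + Exe. The log2 fold change was 0.87 with a standard error of 0.29 and a 95% interval from 0.15 to 1.59 (limma, unadjusted p = 0.0261, adjusted p = 0.959). It ranked 489 among the 18596 genes by p. The difference stood in the main transcript of 2552 bases, with 2.75 and 3.30 scaled FPKM in Ob against 5.67 and 5.50 in Ob + Exe. Without Ob + Exe replicate 2 the log2 fold change was 1.01 and Socs3 was called (limma, adjusted p = 0.373), and in the other 14 settings it was 0.72 to 0.88 and not called. The unadjusted p was under 0.05 in 11 of 15 settings and reached 0.114 without Ob replicate 2.

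Socs3 is induced through STAT3 by cytokines such as interleukin-6 and G-CSF. In a list of 11 genes around STAT3, 9 were tested, none was called, and the median log2 fold change was 0.32, with 8 of the 9 above 0, against 3.74% called, a median of -0.019 and 48.3% above 0 over all genes tested. Csf3 and Lep, the ligands G-CSF and leptin, are listed at 0 in all libraries. Csf3r, the G-CSF receptor of neutrophils and the most abundant of them, had 141 and 134 scaled FPKM in Ob against 185 and 166 in Ob + Exe. Il6ra, a receptor of interleukin-6, had 7.24 and 5.79 in Ob against 8.58 and 9.29 in Ob + Exe, and Stat3 itself had 26.0 and 24.3 in Ob against 21.9 and 32.6 in Ob + Exe. Il6, the gene of interleukin-6, was low, with 0.621 and 0.460 in Ob against 0.164 and 1.90 in Ob + Exe. Il6st was the 1 gene below 0, with a log2 fold change of -0.11. The groups did not overlap for Csf3r and Il6ra and overlapped for the other 7, where 32.6% of all genes tested did not overlap. Summed over 10 neutrophil markers, the level was 49128 and 27946 scaled FPKM in Ob against 36304 and 66022 in Ob + Exe. Most of it came from S100a8 and S100a9. The 10 neutrophil markers had a median log2 fold change of 0.32 with 9 above 0, much as the STAT3 list had. For 9 of these 10 markers the groups overlapped. Their part in the difference of Socs3 was not tested.

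Adipor1 lies on chromosome 1 (ENSMUSG00000026457.14, 134415378 to 134433351, plus strand). It had 125 and 127 scaled FPKM in Ob, 126.0 ± 1.05 (SD, n = 2), and 136 and 178 in Ob + Exe, 157 ± 29.7 (SD, n = 2). Both Ob + Exe libraries were above the Ob libraries, and they differed from each other by more than replicate 1 differed from Ob. The log2 fold change was 0.30 (standard error 0.22, 95% interval -0.25 to 0.85, limma, adjusted p = 0.959). It was 0.50 without Ob + Exe replicate 1, with an unadjusted limma p of 0.0481, and 0.11 without Ob + Exe replicate 2. Both of its main transcripts encode the same coding exons and differ in the first exon. The transcript of 3123 bases had 47.3 and 54.3 in Ob against 57.0 and 81.1 in Ob + Exe. The transcript of 3446 bases had 74.2 and 70.2 in Ob against 75.9 and 94.0 in Ob + Exe.

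Adipor2, on chromosome 6 (ENSMUSG00000030168.13, 119353150 to 119417704, minus strand), had 24.7 and 20.5 scaled FPKM in Ob, 22.6 ± 2.99 (SD, n = 2), and 19.6 and 25.8 in Ob + Exe, 22.7 ± 4.40 (SD, n = 2). The groups overlapped, and the log2 fold change of 0.0020 had a 95% interval from -0.60 to 0.61 (limma, adjusted p = 0.9997). The ratio of Adipor1 to Adipor2 was 5.07 and 6.19 in Ob against 6.92 and 6.88 in Ob + Exe. The Ob + Exe libraries were nearly alike in this ratio and above both Ob libraries, by 0.30 on the log2 scale (two-sided exact permutation p = 0.333, which is the lowest value the design allows). The difference was 0.16 without Ob replicate 1 and 0.44 without Ob replicate 2. Appl1, an adaptor of both adiponectin receptors, had 5.10 and 4.90 scaled FPKM in Ob against 5.85 and 6.74 in Ob + Exe, without overlap and not called. Adipoq, the gene of adiponectin itself, had 4.03 and 5.90 scaled FPKM in Ob against 4.07 and 8.70 in Ob + Exe, with overlapping groups.

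**Figure D3:**
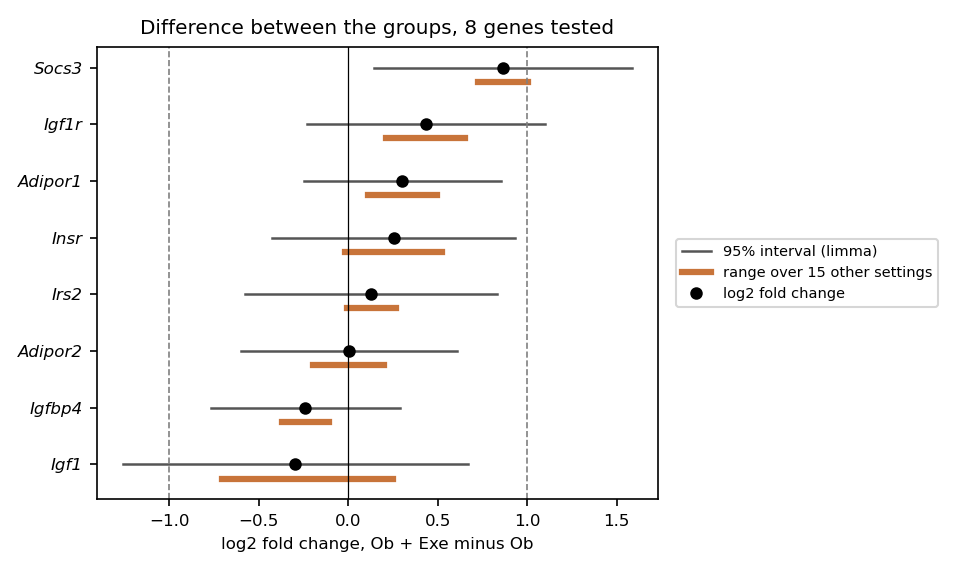
Log2 fold change (Ob + Exe minus Ob, horizontal axis) of the 8 genes tested, with the 95% interval of limma as a thin line and the range over 15 other settings as a thick line; dashed lines mark the threshold of 1. The interval of Socs3 alone lies above 0 (0.15 to 1.59), and those of the other 7 genes include it.

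The other genes of the pathway were examined as 10 lists that hold 91 genes with the members. Of the 76 that were tested, none was called in either direction, against 3.74% of all genes tested, and Socs3 was the 1 gene with an unadjusted p under 0.05 in limma. The median log2 fold change was 0.09, and 22 genes (28.9%) had groups that did not overlap, against 32.6% of all genes tested. Counted without the members, 0 of 68 genes were called, 40 had a log2 fold change above 0 and 18 (26.5%) had groups that did not overlap, where 48.3% and 32.6% of all genes tested did so.

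The insulin genes Ins1 and Ins2 are listed at 0 in all 4 libraries. Igf2, the fetal IGF, had 0.772 and 0.0902 scaled FPKM in Ob, 0.000553 in Ob + Exe replicate 1 and 0 in Ob + Exe replicate 2. It was not called, and most of its level was in 1 library. Igf2r, which carries IGF-2 to the lysosome, had 4.40 and 2.77 in Ob against 4.32 and 5.01 in Ob + Exe, with overlapping groups. Among the adaptors, 10 of 12 genes were tested, and Grb2, which links the receptors to Ras, had 46.4 and 44.2 in Ob against 48.2 and 53.5 in Ob + Exe. Among binding proteins and their proteases 6 of 12 were tested. Igfbp5, a binding protein of bone, had 8.80 and 20.4 in Ob against 6.18 and 9.25 in Ob + Exe, which overlapped. Igfbp7 had 9.59 and 13.3 in Ob against 9.85 and 10.3 in Ob + Exe, and Igfbp1 is listed at 0 in all libraries. Among 16 inhibitors of the insulin signal, all tested, 7 had a log2 fold change above 0 and the median was -0.01. Their most abundant gene Inpp5d, a lipid phosphatase of blood cells, had 23.1 and 28.9 in Ob against 28.9 and 23.0 in Ob + Exe. Socs1, a relative of Socs3, had 1.51 and 1.92 in Ob against 0.949 and 1.22 in Ob + Exe, lower where Socs3 was higher, and it was not called. Ptpn1, a phosphatase that removes the phosphate of the insulin receptor, had 21.5 and 21.1 in Ob against 22.4 and 27.0 in Ob + Exe, and Trib3, an inhibitor of Akt, had 0.865 and 1.34 in Ob against 1.82 and 1.87 in Ob + Exe. Neither overlapped between the groups and neither was called. With Socs3 they made 3 of the 16 inhibitors that were higher in both Ob + Exe libraries. Another 3, Socs1 among them, were lower in both, and the groups overlapped for the other 10. Among all genes tested, 14.3% were higher and 18.3% lower in this way.

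In the growth hormone axis, which drives Igf1 in liver, all 4 genes overlapped between the groups, and Jak2 had 27.7 and 24.6 in Ob against 22.7 and 31.5 in Ob + Exe. AMPK is a kinase downstream of the adiponectin receptors. Of a list of 8 genes with its subunits and Stk11, the kinase that activates it, 7 were tested, and the most abundant, Prkag1, had 64.0 and 76.4 in Ob against 80.2 and 80.6 in Ob + Exe. All 14 genes of the PI3K, Akt and FoxO list were tested. Their median log2 fold change was 0.09, and the most abundant, Akt1, had 47.0 and 38.2 in Ob against 47.5 and 41.7 in Ob + Exe. The groups overlapped for 10 of these 14 genes, where 32.6% of all genes tested had groups that did not overlap. Of the rest, 2 were higher in both Ob + Exe libraries (Pik3ca and Akt2) and 2 were lower (Pik3r2 and Gsk3a). None of them was called. Akt2, the form of Akt that insulin uses in muscle and fat, had 21.2 and 20.3 in Ob against 24.5 and 24.7 in Ob + Exe, without overlap and not called.

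**Figure D4:**
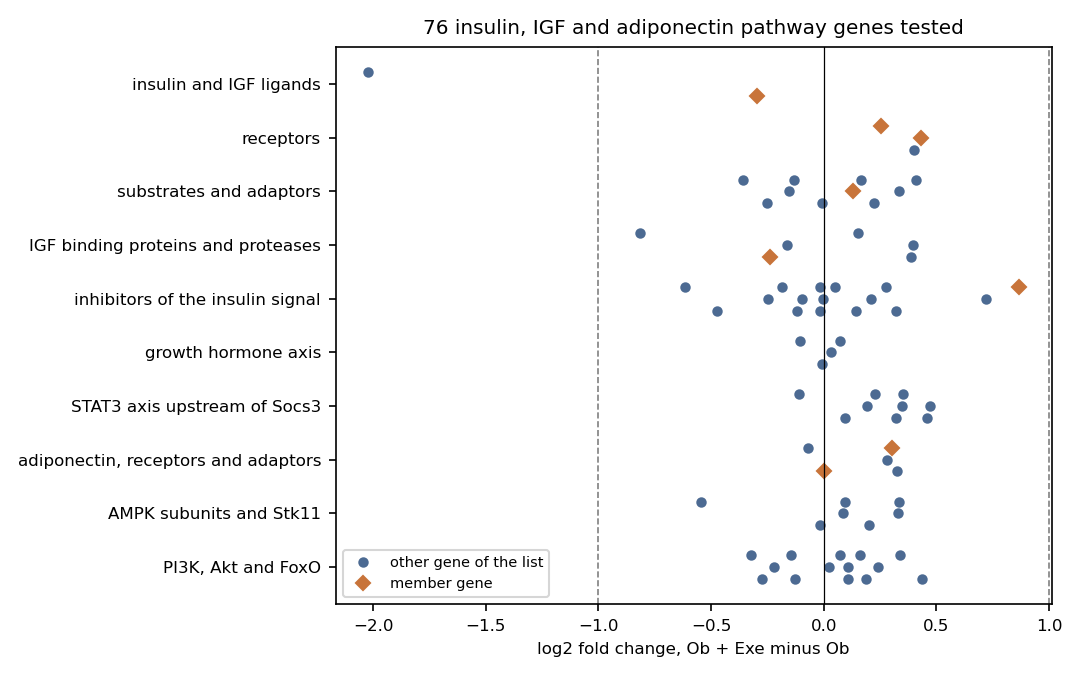
Log2 fold change (Ob + Exe minus Ob, horizontal axis) of the 76 pathway genes tested, 1 point per gene and 1 row per list, with the member genes as diamonds and dashed lines at the threshold of 1. The only point beyond 1 is Igf2 (-2.02), whose p did not pass, and the highest is Socs3 (0.87).

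Of 72 markers of 11 cell types, 69 were tested and 4 were called, a share above the 3.74% of all genes tested but resting on 4 genes. Acta1 of skeletal muscle was higher in Ob + Exe, and Cd79a of B cells, Col1a1 of stroma and Bglap2 of osteoblasts were lower. Bglap2 was low, with 1.12 and 3.39 scaled FPKM in Ob against 0 and 0.721 in Ob + Exe. Summed over 10 stroma and fibroblast markers, the level was 114 and 168 scaled FPKM in Ob against 108 and 173 in Ob + Exe. Most of this sum came from Cxcl12. The median log2 fold change of these markers was 0.06, with 5 of the 10 above 0, and the groups overlapped for 7. Of the rest, 2 were higher in both Ob + Exe libraries and 1, Col1a1, was lower. The 10 macrophage and monocyte markers summed to 522 and 470 in Ob against 457 and 526 in Ob + Exe. The 7 erythroid markers summed to 7335 and 7002 in Ob against 7836 and 12105 in Ob + Exe, most of it from the globin gene Hbb-bt. Their median log2 fold change was -0.11, with 3 of the 7 above 0, and their groups overlapped for 6 of the 7. B cell markers, 6 in number, were lower in sum, with 175 and 178 in Ob against 140.5 and 114 in Ob + Exe. The 4 megakaryocyte markers summed to 439 and 313 in Ob against 362 and 132 in Ob + Exe, and the 4 T and NK cell markers to 58.6 and 31.3 in Ob against 59.5 and 41.2 in Ob + Exe. The 6 osteoblast markers summed to 15.1 and 23.2 in Ob against 13.7 and 13.8 in Ob + Exe. Of 6 adipocyte markers, Lep is listed at 0 in all libraries and Plin1 did not reach the minimum. Their sum was 68.6 and 72.4 in Ob against 115 and 93.2 in Ob + Exe, most of it from Fabp4, a gene that endothelium and macrophages also express. All 4 endothelium markers had lower values in both Ob + Exe libraries (summed 15.7 and 14.3 in Ob against 10.6 and 9.98 in Ob + Exe), which 18.3% of all genes tested had, and none was called. The 5 skeletal muscle markers summed to 9.21 and 5.49 in Ob against 12.8 and 12.3 in Ob + Exe. The part of these cell types in the values of the members was not tested.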

How the data were processed

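RNA-seq of tibial bone marrow was analysed in 2 Ob and 2 Ob + Exe libraries. Following the study's methods, the authors trimmed reads with fastp, removed rRNA reads, aligned to GRCm38 with HISAT2 and filtered the alignments with SAMtools. StringTie then estimated the levels of GENCODE vM25 transcripts. They deposited, for each library, the FPKM of 142604 transcripts and the read coverage (a signal in mean depth per base, without correction for library size). Here FPKM were summed per gene, divided by median-of-ratios factors (0.945 to 1.04), log2-transformed after adding 0.1, and compared with limma 3.58.1 in R 4.3.3 (intensity trend), keeping genes with a mean of at least 0.1 FPKM, with Benjamini-Hochberg adjustment over 18596 genes. A pseudocount makes the fold changes of low genes smaller than they would be without it. The test was checked on simulated data. Transcript structures and sequences came from GENCODE vM21, in which all 39 transcripts of the 9 genes had the same span and length as in the deposited tables. Sums and figures were made in Python 3.11.15 (pandas 2.3.3, matplotlib 3.10.9). The members and the lists were chosen with earlier results of these data known. Named in the text were all members, the most abundant and the called genes of each list, and some others picked after their values were seen (Ins1, Ins2, Igf2, Igf2r, Igfbp1, Igfbp5, Igfbp7, Socs1, Ptpn1, Trib3, Il6, Il6ra, Il6st, Stat3, Csf3, Lep, Appl1, Adipoq, Akt2, Pik3ca, Pik3r2, Gsk3a and the markers). The alternatives were other pseudocounts, minimum values, scalings and tests, a replicate block, and leaving out each library. The crossed pairing and the longest transcript were added after seeing the data. Depth was 44310505 to 53038186 read equivalents per library, and the precision is limited by having 2 libraries per group.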

Additional observations from a re-analysis of the deposited data

How the results depend on the processing

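The lack of calls among the members held in all settings but 1. Leaving out each library in turn gave 0 to 1 member genes called, the 1 being Socs3, and 0 to 1 pathway genes called (Igf2, Il6 or Socs3). With the longest transcript only, 3 pathway genes were called (Stat5b, Pik3ca and Shc1), named after their values were seen. Over all genes 696 were called. A pseudocount of 1 gave 222, a minimum mean of 1 FPKM 270, voom 450, the fit without an intensity trend 1060, and leaving out a library 744 to 1920 (1920 without Ob + Exe replicate 2 and 1260 without Ob + Exe replicate 1). Quantile normalization moved the share of higher genes among the calls from 26.7% to 37.1% (245 higher and 416 lower, against 186 and 510). It was 20.6% without scaling, 21.1% with voom, 18.3% without a minimum, 40.1% with the longest transcript and 12.6% to 33.9% when 1 library was left out. The log2 fold change of Igf1 reversed to 0.15 (voom), 0.12 (without Ob + Exe replicate 1) and 0.25 (longest transcript). That of Adipor2 reversed to -0.086 without scaling, -0.053 with quantile normalization, -0.077 with voom, -0.078 with the longest transcript, -0.13 without Ob replicate 2 and -0.20 without Ob + Exe replicate 2. Without Ob replicate 1, Insr was at -0.018 and Irs2 at -0.0073. Over the fits that left out 1 library the log2 fold changes reached 0.53 for Insr, -0.71 for Igf1, 0.26 for Irs2 and 0.20 for Adipor2, while those of Igf1r (0.21 to 0.65), Adipor1 (0.11 to 0.50), Socs3 (0.73 to 1.01) and Igfbp4 (-0.37 to -0.11) kept their sign. The cause of these reversals was not tested. With read equivalents the difference in the log2 ratio of Igf1 to Igfbp4 moved from -0.06 to 0.47, the mean share of the full-length Insr transcript from 60.0% to 95.4%, and that of Igf1 transcripts with the 52-base exon from 44.1% to 11.5%, because a read on a short transcript adds more FPKM.

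The libraries carry replicate numbers 1 and 2, which no label ties to a shared litter or batch. The differences of replicate 1 from replicate 2 had a correlation of -0.11 across genes between the groups. With the replicate block 742 genes and no member were called, 18 genes had an adjusted p under 0.05 where the fit without it had 0, and the unadjusted p of Socs3 was 0.0732 in limma. With the crossed pairing 803 genes and no member were called, 11 of all genes with an adjusted p under 0.05.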
